A study of Mus musculus with 6 samples.

Results

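The 10 genes Gbp2, Gbp3, Gbp4, Gbp5, Gbp6, Gbp7, Igtp, Irgm1, Irgm2 and Ifi47 encode interferon-inducible GTPases, 6 of them guanylate-binding proteins (GBPs) and 4 of them immunity-related GTPases (IRGs). They were picked by symbol from the 23420 genes of a count table of tumor regulatory T cells (Tregs). Their counts played no part in the rule, but earlier results of these data were known when they were chosen. RNA was sequenced from 3 libraries of mice given anti-PD-1 (libraries 4, 5 and 6) and 3 libraries of untreated mice (libraries 1, 2 and 3). All mice were Foxp3-GFP mice on BALB/c, in which FoxP3-expressing cells carry GFP, and all bore tumors of T11 cells, claudin-low triple-negative breast cancer cells of which 10000 were injected. The treated mice were injected intraperitoneally with 200 µg of antibody J43 against PD-1, 2 times per week, and tumors of both groups were taken at 150 mm2. GFP-positive Tregs were sorted above 90% pure. The labels give no age or sex. They also leave out how many mice stand behind a library and whether each library had its own mice, so the p-values reflect only how far these libraries differed, and that may include technical variation.

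GBPs are large GTPases of the dynamin superfamily that self-assemble on membranes of pathogens and pathogen-containing vacuoles. IRGs are smaller GTPases that work on the same membranes and fall into effectors and regulators, the regulators keeping the effectors inactive on the cell's own membranes. Interferon gamma induces both families through its receptor and the kinases JAK1 and JAK2. Promoters of the genes it induces often carry gamma-activated sites (GAS), and IRF family factors, IRF1 among them, bind the interferon-stimulated response element (ISRE). In T cells, Irgm1 is known for the survival of cells exposed to interferon gamma.

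Promoter sequences, from 250 bases before to 50 bases after an annotated start site, were taken from RefSeq on GRCm38.p6, whose chromosome coordinates are those of mm10. Entries matched 8 of the 10 genes (9 entries, 2 of them for Gbp3), and none matched Gbp4 or Gbp6. Both strands were searched for the 9-letter core of the ISRE, GAAANNGAA, and for the GAS letters TTCNNNGAA. The ISRE core was found in 7 of the 8 genes, the exception being Ifi47, and in 8.56% of all 32851 promoters of the table. GAS letters were found in 4 of the 8 (Gbp5, Gbp7, Igtp and Irgm2) and in 8.30% of all promoters. Both together were found in the same 4 genes and in 1.07% of all promoters. A match describes letters in this window and is not a binding site. Among the 7 genes with an ISRE core, Gbp5 carries it farthest from its start. A link between that position and expression was not tested. The stretches around the ISRE core are shown because this is the sequence that most members share. Each is printed 5′ to 3′ in the direction of the gene, with the core matches in capitals (reverse complement for the chromosome 3 genes, where the letters read TTC first).
Gbp2, chr3:142620590-142620628, plus strand: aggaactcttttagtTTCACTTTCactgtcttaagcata
Gbp3, chr3:142559985-142560029, plus strand: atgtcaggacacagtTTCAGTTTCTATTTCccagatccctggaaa
Gbp5, chr3:142496755-142496793, plus strand: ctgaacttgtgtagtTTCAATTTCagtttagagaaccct
Gbp7, chr3:142530269-142530307, plus strand: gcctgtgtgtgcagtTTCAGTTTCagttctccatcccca
Igtp, chr11:58199507-58199545, plus strand: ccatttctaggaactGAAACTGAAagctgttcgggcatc
Irgm2, chr11:58214898-58214936, plus strand: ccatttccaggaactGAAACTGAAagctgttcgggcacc
Irgm1, chr11:48871421-48871465, minus strand: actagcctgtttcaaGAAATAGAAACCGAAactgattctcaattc

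The 4 chromosome 3 genes read TTC first and the 3 chromosome 11 genes read GAA first. In Gbp3 and Irgm1, 2 core matches overlap. The promoters of Igtp and Irgm2 share an identical stretch of 61 bases, nearly all of it downstream of the lines above. The core match begins 164 bases before the start in Gbp5, against 24 to 64 bases in the other 6 genes. The whole Gbp5 promoter (chr3:142496684-142496983, plus strand), with its 2 GAS matches and its ISRE core match in capitals, reads as follows.
Gbp5 promoter: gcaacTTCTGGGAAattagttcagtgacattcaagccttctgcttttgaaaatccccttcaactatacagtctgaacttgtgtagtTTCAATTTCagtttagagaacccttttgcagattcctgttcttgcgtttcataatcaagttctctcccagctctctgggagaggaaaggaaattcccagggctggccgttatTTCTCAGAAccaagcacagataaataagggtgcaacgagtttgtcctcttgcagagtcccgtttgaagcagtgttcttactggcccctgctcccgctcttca

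**Figure D1:**
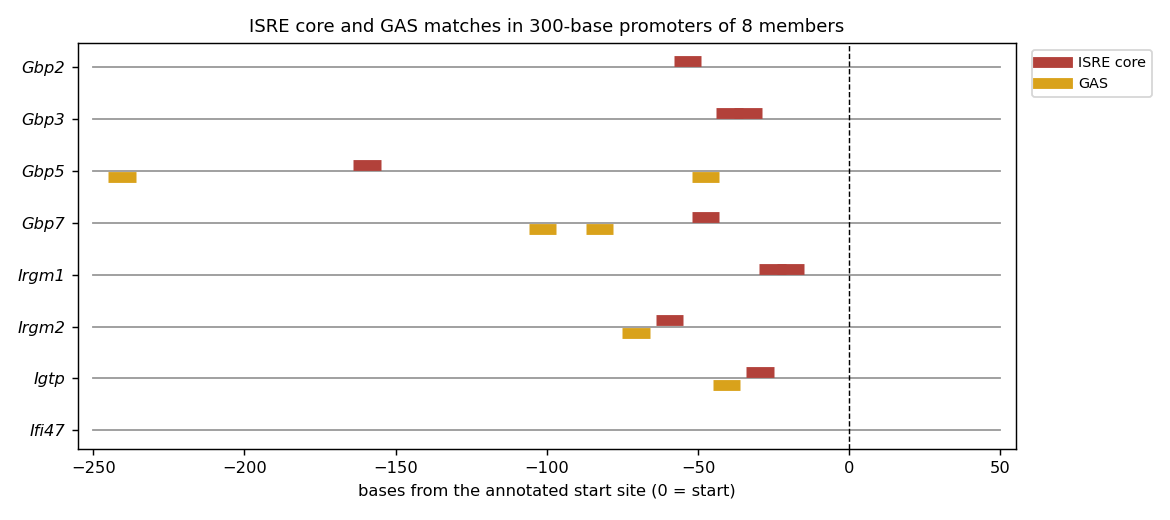
Positions of matches to the ISRE core (red) and GAS letters (yellow) in the promoters of 8 genes; the x axis is the distance in bases from the annotated start site. The ISRE core of Gbp5 lies at -164, and those of the other 6 genes that hold it start between -64 and -24.

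Total counts were 4766533 to 5219249 in the anti-PD-1 libraries and 5470816 to 6686774 in the untreated libraries, so every untreated library was deeper. The gene Rn45s alone held 21.4%, 21.8% and 25.1% of the counts in anti-PD-1 libraries 4, 5 and 6. In untreated libraries 1, 2 and 3 it held 22.0%, 21.9% and 22.3%. Its part in the values below was not tested. All 10 genes passed the filter on low counts, with 241 to 5325 fragments per library, giving a counting error alone of 6.44% to 1.37%. The defining Treg markers were present in every library. Foxp3 had 543, 562 and 461 counts per 1000000 (CPM, scaled by TMM) in the anti-PD-1 libraries 4, 5 and 6, against 460, 437 and 453 CPM in untreated libraries 1, 2 and 3. Cd4 had 468, 496 and 467 CPM after anti-PD-1 and 365, 442 and 459 CPM untreated, in the same library order. Every library had been sorted on a Foxp3 reporter, so Foxp3 was part of the choice of cells. The 7 Treg markers together held 0.593% ± 0.0397 of the counts in anti-PD-1 libraries and 0.667% ± 0.00758 in untreated libraries (SD, n = 3 each), with no overlap (two-sided exact permutation test, p = 0.1, the smallest the design allows, 0.45 adjusted over 9 marker lists). The markers did not share a direction. Foxp3 and Cd4 were higher in every anti-PD-1 library than in any untreated library, by log2 fold changes of 0.21 ± 0.14 and 0.18 ± 0.14 (SE, edgeR adjusted p = 0.731 and 0.780). Ctla4 (-0.41 ± 0.13, SE, edgeR adjusted p = 0.448) and Ikzf2 (-0.24 ± 0.13, SE, edgeR adjusted p = 0.663) were lower without overlap, and Il2ra (-0.35 ± 0.16, SE, edgeR adjusted p = 0.569) was lower with overlap. The part of these markers in the values below was not tested. In bulk samples, fewer cells of a type and less RNA per cell cannot be told apart.

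No member passed the threshold. edgeR's quasi-likelihood test, adjusted by Benjamini-Hochberg over all 10352 genes tested, called 0 of the 10 members at 0.05, against 3 of all genes (0.0290%), and DESeq2 called 0 of the 10, against 0.654% of the genes to which it gave an adjusted p. In edgeR, 2 members reached an unadjusted p under 0.05, Gbp5 and Gbp6, both lower after anti-PD-1, beside 4.07% of all genes lower at that p. The fold change was below 0 in 8 of 10 members, as it was in 49.9% of all genes, the exceptions being Irgm2 and Ifi47. The median log2 fold change was -0.12 over the 10 members, -0.29 over the 6 GBPs and -0.01 over the 4 IRGs, beside 0.00 over all genes. Of the members, Gbp5 alone had no overlap between groups, with every anti-PD-1 library lower, which was so for 6.44% of all genes.

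Gbp5, a prenylated GBP known in mouse macrophages for promoting assembly of the NLRP3 inflammasome, had the largest difference. It lies on chromosome 3 (142496934 to 142522344, plus strand, mm10). Its level was 117, 97.5 and 143 CPM in the anti-PD-1 libraries 4, 5 and 6, against 217, 168 and 169 CPM in untreated libraries 1, 2 and 3. The highest treated library lay below the lowest untreated one. Means were 119 ± 22.8 CPM after anti-PD-1 and 185 ± 27.9 CPM untreated (SD, n = 3 each). The log2 fold change was -0.64 ± 0.18 (SE, 95% interval -1.01 to -0.26), a ratio of 0.643, with an unadjusted p of 0.0019, rank 53 of all genes, and an edgeR adjusted p of 0.366. DESeq2 gave an adjusted p of 0.104. Its promoter is the one shown whole above.

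Its neighbours on chromosome 3 are Gbp7, Gbp3 and Gbp2. Gbp7, linked in mouse macrophages to the assembly of NADPH oxidase, had 645, 784 and 599 CPM in the anti-PD-1 libraries 4, 5 and 6, against 853, 755 and 810 CPM in untreated libraries 1, 2 and 3. Treated library 5 reached into the untreated range, and the other two lay below it. The log2 fold change of Gbp7 was -0.25 ± 0.14 (SE, edgeR adjusted p = 0.663).
Gbp3, one of the GBPs that mouse cells recruit to the vacuole of Toxoplasma, had 256, 294 and 217 CPM in the anti-PD-1 libraries 4, 5 and 6, against 367, 336 and 258 CPM in untreated libraries 1, 2 and 3. Untreated library 3 lay among the treated ones. Its log2 fold change was -0.32 ± 0.17 (SE, edgeR adjusted p = 0.627). Gbp2, also recruited to that vacuole and needed for its control in mice, had 82.3, 113 and 72.9 CPM in anti-PD-1 libraries, against 98.8, 83.8 and 90.2 CPM in untreated libraries, in the same library order. Treated libraries held both the highest and the lowest value, and the log2 fold change was -0.03 ± 0.20 (SE, 95% interval -0.44 to 0.38). That sign turned, to values close to 0, with upper quartile scaling (0.0075) and with total counts (0.0010). Gbp3 lies at 142560052 to 142573212, Gbp7 at 142530338 to 142550083 and Gbp2 at 142620663 to 142638008, all on the plus strand.

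Gbp4 and Gbp6 lie on chromosome 5, on the minus strand (105115767 to 105139586 and 105270702 to 105293699). Gbp6, another GBP found at the Toxoplasma vacuole, had 138, 239 and 118 CPM in the anti-PD-1 libraries 4, 5 and 6, against 206, 274 and 220 CPM in untreated libraries 1, 2 and 3. Treated libraries 4 and 6 lay below every untreated library, and library 5 lay among them. The log2 fold change was -0.50 ± 0.21 (SE, 95% interval -0.92 to -0.07), with an unadjusted p of 0.0246 and an edgeR adjusted p of 0.551. With anti-PD-1 library 5 left out it was -0.86, and with library 6 left out -0.31. Gbp6 was also the member whose counts are least certain: 70.3% of the 50-base words of its GENCODE transcripts also occur in another gene of the table, 62.3% in Gbp10, and the counting command in the file header sets no option for reads that map to several places. In the other members that share was 0.234% (Gbp5) to 11.9% (Gbp4). Gbp10 itself had 112, 206 and 104 CPM in anti-PD-1 libraries, against 174, 210 and 214 CPM in untreated libraries, so library 5 was the highest treated library for both genes. Gbp4, which in mouse cells restrains IRF7 signalling, had 261, 340 and 227 CPM after anti-PD-1 and 301, 285 and 292 CPM untreated. The untreated values were close together, the treated ones lay on both sides of them, and the log2 fold change was -0.09 ± 0.16 (SE, edgeR adjusted p = 0.920).

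**Figure D2:**
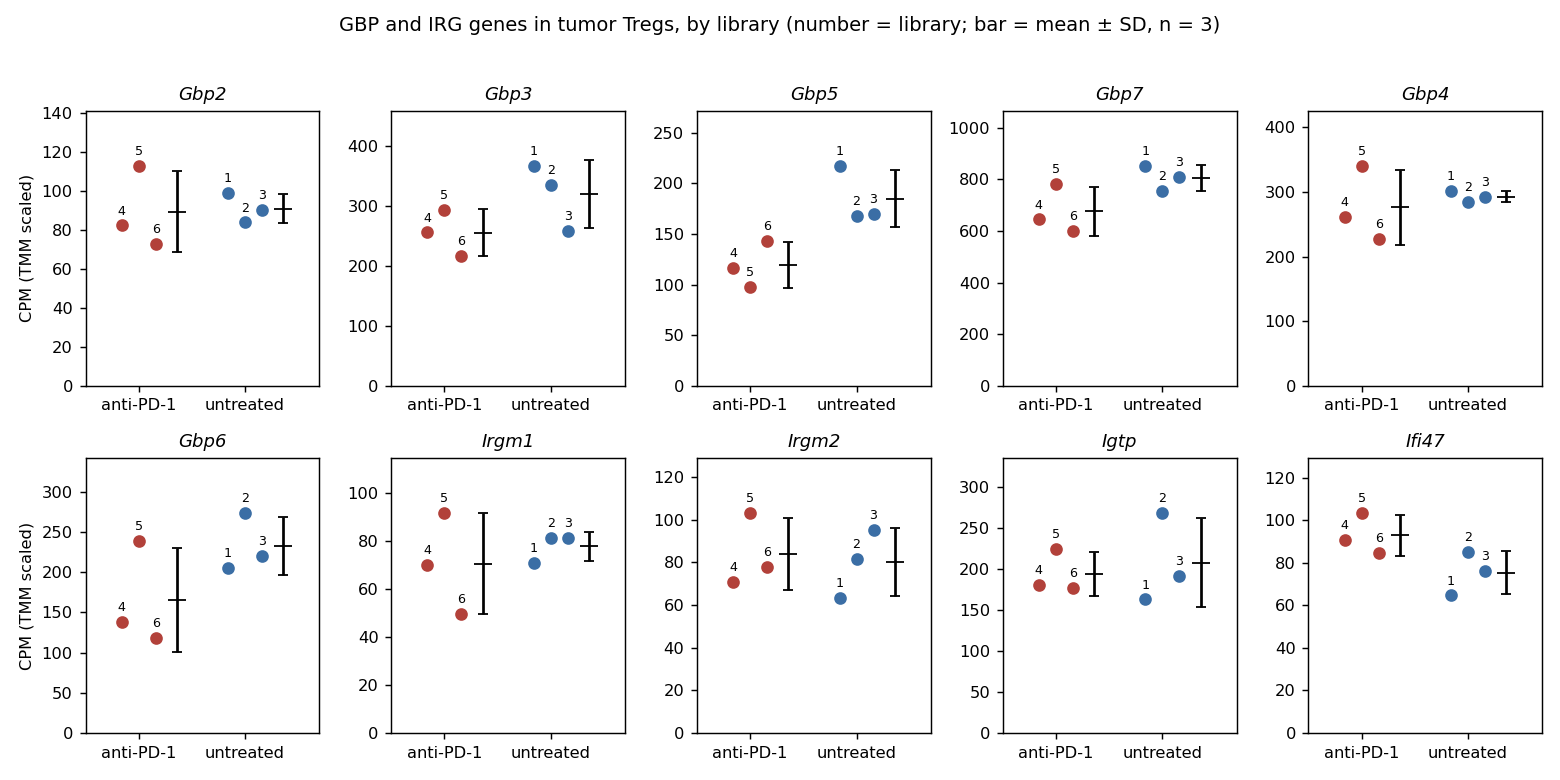
TMM-scaled CPM of the 10 genes in each library, anti-PD-1 libraries left (red) and untreated libraries right (blue), numbered by library, with the mean ± SD of 3 beside each group. Gbp5 is the gene whose groups do not overlap; in the other 9 genes treated library 5 is the highest of the treated libraries.

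The regulatory IRGs are Irgm1, Irgm2 and Igtp, all on chromosome 11. Irgm1 had 70.1, 91.7 and 49.7 CPM in the anti-PD-1 libraries 4, 5 and 6, against 70.9, 81.3 and 81.5 CPM in untreated libraries 1, 2 and 3. Treated libraries held both the highest and the lowest value. Irgm2 had 70.7, 103 and 77.7 CPM after anti-PD-1 and 63.4, 81.7 and 95.1 CPM untreated, in the same library order, and the groups overlapped. Igtp had 180, 225 and 177 CPM after anti-PD-1 and 163, 268 and 192 CPM untreated, with the untreated libraries spanning the treated ones. Log2 fold changes were -0.14 ± 0.22 for Irgm1, 0.07 ± 0.21 for Irgm2 and -0.10 ± 0.18 for Igtp (SE), with edgeR adjusted p of 0.895, 0.959 and 0.924. The 95% interval for Irgm1, -0.60 to 0.31, leaves room for a difference in either direction. Irgm1 lies at 48865249 to 48871346 on the minus strand, Irgm2 at 58214977 to 58222783 and Igtp at 58199556 to 58207592, both on the plus strand.

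Ifi47, an effector IRG, ran the other way. It had 90.8, 103 and 84.7 CPM in the anti-PD-1 libraries 4, 5 and 6, against 64.7, 85.1 and 76.4 CPM in untreated libraries 1, 2 and 3. A treated library was higher in 8 of the 9 treated-untreated pairs, the exception being treated library 6 against untreated library 2. The log2 fold change was 0.31 ± 0.20 (SE, 95% interval -0.10 to 0.71), with an edgeR adjusted p of 0.712. Ifi47 lies on chromosome 11 (49076587 to 49096987, plus strand). Among the 8 members with a promoter entry, it was the one without an ISRE core. Gbp4 and Gbp6 could not be searched, and Irgm2, also above 0, holds the core. A link between the core and the fold changes was not tested. Ifi47 overlaps Olfr56 in the annotation, and 2.54% of its 50-base words also occur in that gene.

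**Figure D3:**
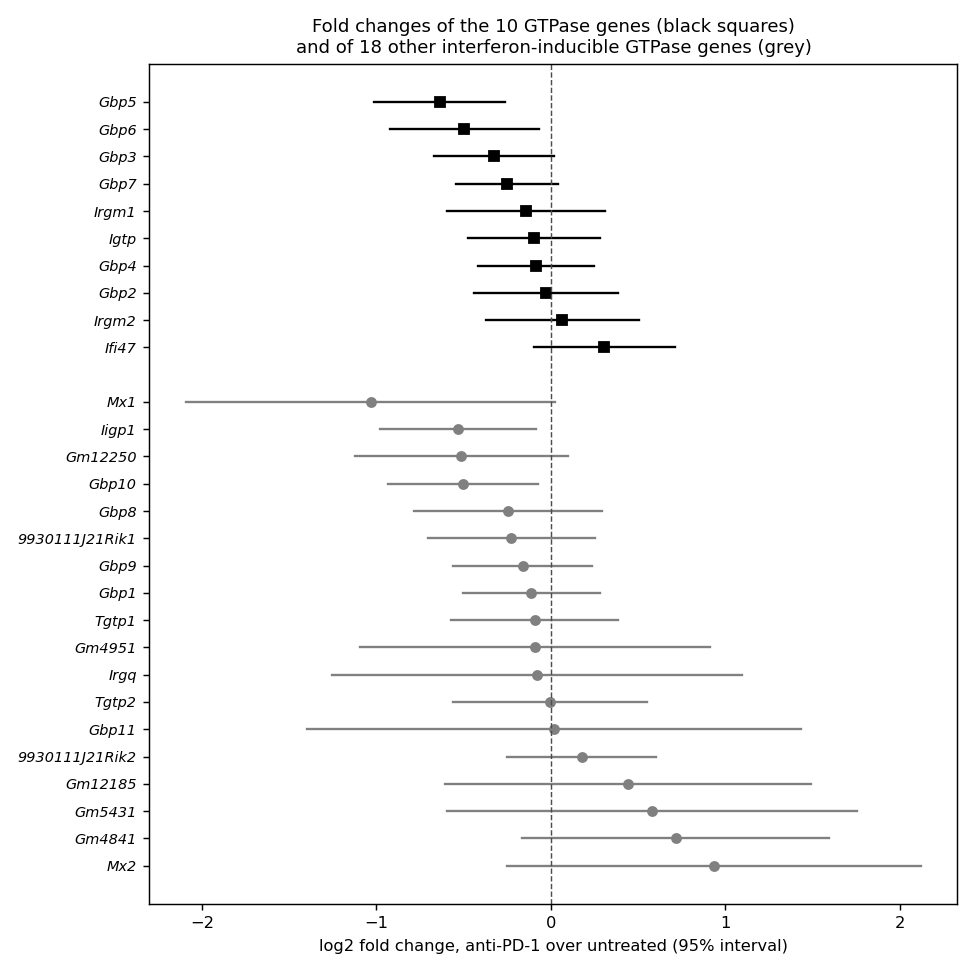
Log2 fold changes with 95% intervals (edgeR, anti-PD-1 over untreated) of the 10 genes (black squares) and of 18 other genes of interferon-inducible GTPase families (grey circles). The intervals of Gbp5 and Gbp6 exclude 0 and those of the other 8 members hold it; Iigp1 and Gbp10 are the 2 among the other genes whose intervals exclude 0.

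Levels can be compared between genes only per length, so CPM were also divided by the table's gene length in kilobases (RPKM). The mean over the 6 libraries was 133 for Gbp7, 109 for Gbp3, 99.3 for Igtp, 62.7 for Gbp4, 50.3 for Gbp5, 46.1 for Gbp6, 41.8 for Ifi47, 36.7 for Gbp2, 33.3 for Irgm1 and 23.3 for Irgm2. Of the tested genes, 96.7% lay below Gbp7 and 76.2% below Irgm2. Gbp7 was above Gbp3, Igtp above Gbp4 and Irgm1 above Irgm2 in all 6 libraries. Gbp3 was above Igtp, Gbp5 above Gbp6 and Gbp6 above Ifi47 in 4 of 6 libraries each, so these neighbours cannot be ordered beyond their spread. By counts alone, Gbp7 supplied 33.8% of the fragments of the 10 genes.

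In 5 of the 10 members (Gbp2, Gbp4, Igtp, Irgm1 and Irgm2) the SD of the anti-PD-1 libraries exceeded the difference between the group means. Anti-PD-1 library 5 held the highest treated value in 9 of 10 members, the exception being Gbp5, for which it held the lowest. Over all tested genes that library was the highest treated one in 34.0% of cases. Anti-PD-1 library 6 held the lowest treated value in 8 of 10 members, against 32.0% of all genes. Centred on each gene's own mean, the 10 members averaged -0.16, 0.17 and -0.28 (log2) in anti-PD-1 libraries 4, 5 and 6, and 0.05, 0.16 and 0.07 in untreated libraries 1, 2 and 3. Their CPM summed to 1912, 2391 and 1766 in the anti-PD-1 libraries and 2404, 2417 and 2284 in the untreated libraries, so libraries 4 and 6 were low while library 5 lay within the untreated range. Library 5 was also the highest treated one in 15 of 18 other genes of interferon-inducible GTPase families and 15 of 25 other interferon gamma target genes. It was so in 5 of 9 receptor and JAK-STAT genes, 4 of 6 interferon regulatory and transactivating factors and 4 of 10 negative regulators. Among autophagy genes it was so in 6 of 16, and among prenylation genes in 2 of 6. These counts were made after the values were seen and carry no test.

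**Figure D4:**
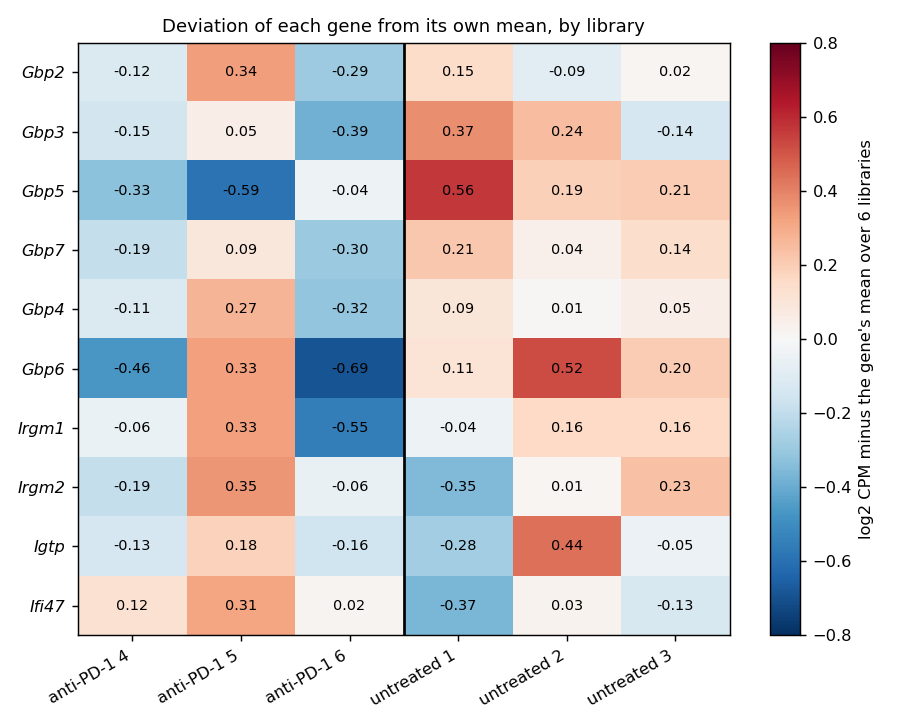
Log2 CPM of the 10 genes in each library, minus the gene's mean over the 6 libraries, with anti-PD-1 libraries left of the black line. Anti-PD-1 library 5 is above the gene's mean in 9 rows and at -0.59 in the Gbp5 row.

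Leaving out anti-PD-1 library 5 moved the median of the members to -0.32, with 9 of 10 below 0 and 4 lower at an unadjusted p under 0.05. In that setting 49.97% of all 10682 tested genes lay below 0, and 558 reached that p in either direction. Leaving out anti-PD-1 library 6 moved the member median to 0.00, with 5 of 10 below 0 and 1 lower at that p. There 50.2% of all 10683 tested genes lay below 0, and 747 reached that p in either direction. The numbers 558 and 747 take both directions, whereas the members were counted as lower only. The transcripts of the CD8 T cell coreceptor, Cd8a and Cd8b1, were also higher in anti-PD-1 library 5 (23.8 and 27.3 CPM) than in the other 2 treated libraries (9.89 to 12.3 and 8.86 to 13.5 CPM), and stood at 5.40 to 15.5 and 4.00 to 15.5 CPM in the untreated libraries. The 4 CD8 T cell markers together held 0.00374% of the counts after anti-PD-1 and 0.00276% untreated, with overlapping groups (0.00246% to 0.00596% and 0.00127% to 0.00420%). Their part in the library pattern was not tested. Macrophage and monocyte markers held 0.00180% to 0.00450% after anti-PD-1 and 0.00165% to 0.00393% untreated, with C1qa at 0 in every library. NK cell, dendritic cell, B cell and neutrophil markers each stayed below 0.002% in every library. The tumor and fibroblast markers, 0.163% of counts after anti-PD-1 and 0.184% untreated, were nearly all Vim and Thy1, which T cells also express. The endothelial list, 0.00997% after anti-PD-1 and 0.00698% untreated with no overlap, consisted of Pecam1 alone, with Cdh5, Kdr, Emcn and Vwf at 0.

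By the closeness of profiles over the 6 libraries (root mean square distance of centred log2 CPM), Gbp4 (0.08) and Gbp7 (0.09) lay nearest the mean profile of the 10 members and Gbp5 (0.40) farthest. The closest pair was Gbp2 and Gbp4 (0.06), which lie on different chromosomes. Among 8692 other genes of at least 5 CPM, the closest to the mean profile were Ddx58 (0.04), which encodes the interferon-inducible RNA sensor RIG-I, and Ankfy1, Dido1, Ddx42 and Inpp5d, at 0.05 to 0.06. Ddx58 had a log2 fold change of -0.22 ± 0.18 (SE, edgeR adjusted p = 0.798).

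Sums over genomic clusters depend less on how reads were divided between similar genes, but do not restore reads left uncounted. The chromosome 11 members are not a single cluster, as Irgm1 and Ifi47 lie apart from Igtp and Irgm2. The 4 chromosome 3 members summed to 1141 ± 133 CPM after anti-PD-1 and 1402 ± 116 CPM untreated (SD, n = 3 each), a log2 ratio of -0.30 with no overlap. With Gbp1, the remaining gene of that cluster on the list, the sums were 1276 ± 159 CPM and 1548 ± 142 CPM, and the groups overlapped. The 2 chromosome 5 members summed to 441 ± 123 CPM after anti-PD-1 and 526 ± 28.2 CPM untreated, with overlap. That sum leaves out Gbp10, the gene most like Gbp6. With the other GBP genes of that cluster on the list, 6 genes in all, the sums were 780 ± 227 CPM and 949 ± 33.3 CPM. The log2 ratio was -0.28, with overlap. The 4 chromosome 11 members summed to 441 ± 71.4 CPM and 441 ± 77.3 CPM, a log2 ratio of 0.00. With the other IRG genes of that chromosome on the list, 11 genes in all, the sums were 763 ± 151 CPM and 779 ± 93.8 CPM. The log2 ratio was -0.03, with overlap.

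None of the 18 tested genes among 20 other genes of interferon-inducible GTPase families passed the test in edgeR or DESeq2. In 12 of them the fold change was below 0, with a median of -0.09. The effector IRG gene Iigp1 had 59.7, 107 and 66.8 CPM in the anti-PD-1 libraries 4, 5 and 6, against 111, 96.1 and 129 CPM in untreated libraries 1, 2 and 3, a log2 fold change of -0.53 ± 0.22 (SE, edgeR adjusted p = 0.538). Gbp10 stood at -0.50 ± 0.21 (SE, edgeR adjusted p = 0.551), and its transcripts share 50-base words with Gbp6 as given above. These were the 2 with an unadjusted p under 0.05. Of the other GBPs, Gbp1 (the table's symbol for Gbp2b) stood at -0.11, Gbp8 at -0.24, Gbp9 at -0.16 and Gbp11 at 0.02. Of the IRGs and their relatives, Gm12250 stood at -0.51, 9930111J21Rik1 at -0.23, Tgtp1 at -0.09, Gm4951 at -0.09, Irgq at -0.08, Tgtp2 at -0.00, 9930111J21Rik2 at 0.18, Gm12185 at 0.44, Gm5431 at 0.58 and Gm4841 at 0.71. Between 58.6% and 90.6% of the 50-base words of Tgtp1, Tgtp2, 9930111J21Rik1 and 9930111J21Rik2 occur in another gene, so their separate values are uncertain. The dynamin-like antiviral genes Mx1 and Mx2 stood at -1.03 ± 0.51 and 0.93 ± 0.57 (SE) at low levels, 2.84 to 29.5 and 4.22 to 17.6 CPM. Gvin1 and Irgc1 had no count.

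In the list of the interferon gamma receptor and JAK-STAT genes, 9 were tested, 6 lay below 0 and the median was -0.06. None was called by edgeR or DESeq2, and none reached an unadjusted p under 0.05 in either. Ifng, interferon gamma itself, had 12.7, 20.9 and 11.7 CPM in the anti-PD-1 libraries 4, 5 and 6, against 23.9, 17.3 and 21.6 CPM in untreated libraries 1, 2 and 3 (log2 fold change -0.48 ± 0.36, SE, edgeR adjusted p = 0.761). Anti-PD-1 library 5 was again the highest treated library, and the groups overlapped. The receptor and kinase genes stood at 0.04 ± 0.13 (Ifngr1), 0.71 ± 0.48 (Ifngr2), -0.01 ± 0.13 (Jak1) and -0.27 ± 0.18 (Jak2, SE), all with overlap. Ifngr2 had 20.3, 12.6 and 64.5 CPM after anti-PD-1 and 25.5, 18.9 and 14.3 CPM untreated, so its value rested on library 6. Jak2 had 571, 493 and 500 CPM after anti-PD-1 and 868, 525 and 488 CPM untreated, with untreated library 1 the highest.

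Of 8 interferon regulatory and transactivating factors, 6 were tested, 2 lay below 0 and the median was 0.05. None was called by edgeR or DESeq2, and Irf8 alone reached an unadjusted p under 0.05 in edgeR. Irf1, the IRF most tied to interferon gamma, had 356, 407 and 354 CPM after anti-PD-1 and 332, 350 and 374 CPM untreated, with a log2 fold change of 0.08 ± 0.14 (SE, edgeR adjusted p = 0.916). Irf8, a factor of myeloid cells that activated T cells also express, had 25.8, 33.1 and 40.8 CPM after anti-PD-1 and 61.6, 41.8 and 42.8 CPM untreated, with no overlap (-0.57 ± 0.27, SE, edgeR adjusted p = 0.586). Irf2 (-0.12), Irf7 (0.16) and Nlrc5 (0.29), the MHC class I transactivator, overlapped.

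Negative regulators had the highest median of the lists, 0.21, with 3 of 10 below 0. edgeR called none and gave 2 an unadjusted p under 0.05 (Socs3 and Ptpn6), while DESeq2 called 1, Socs3. Socs3, an inhibitor of cytokine receptor signalling, had 98.2, 102 and 188 CPM after anti-PD-1 and 72.5, 62.9 and 63.2 CPM untreated, with no overlap (log2 fold change 0.96 ± 0.23, SE, edgeR adjusted p = 0.161, DESeq2 adjusted p = 0.0375). Socs1, the main inhibitor of JAKs downstream of interferon gamma, had 41.7, 30.4 and 59.96 CPM after anti-PD-1 and 40.7, 35.0 and 19.2 CPM untreated (0.47 ± 0.30, SE, edgeR adjusted p = 0.710). The phosphatase genes did not share a direction: Ptpn6 stood at -0.60 ± 0.23 and Ptpn11 at 0.36 ± 0.21, both without overlap, and Ptpn2 at -0.02 ± 0.17 (SE). Usp18, which limits type I interferon signalling, stood at 0.83 ± 0.46 (SE, edgeR adjusted p = 0.660).

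Of 30 other interferon gamma target genes, 25 were tested, 14 lay below 0 and the median was -0.02. None was called by edgeR or DESeq2, and 1 (Trim21) reached an unadjusted p under 0.05 in edgeR. Trim21, a cytosolic antibody receptor, had 13.6, 31.7 and 21.2 CPM after anti-PD-1 and 35.7, 40.0 and 33.2 CPM untreated, with no overlap (-0.72 ± 0.31, SE, edgeR adjusted p = 0.551). Tapbp, of the peptide-loading complex, stood at -0.25 ± 0.16 without overlap, Bst2 at -0.46 and Serpina3g at 0.23. Among 16 genes of autophagy conjugation and GTPase targeting, which places IRGs and GBPs on vacuoles, 10 lay below 0 with a median of -0.16. None was called by either tool, and 1 (Atg10) reached an unadjusted p under 0.05 in edgeR. Atg10 stood at -1.34, Atg3 at -0.44, Atg7 at -0.48 and Map1lc3a at 1.04. Atg10 and Map1lc3a had at most 13.6 CPM. Of 6 genes of the prenylation machinery, which lipidates some GBPs, 2 lay below 0 with a median of 0.15. None was called by either tool, and 1 (Rce1) reached an unadjusted p under 0.05 in edgeR. Rce1 stood at 1.87 ± 0.74 (SE), at 0.84 to 7.42 CPM. Fntb stood at 1.26 ± 0.85 (SE), at 0.16 to 8.24 CPM and with overlap. Fnta stood at 0.26 and Zmpste24 at -0.15.

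**Figure D5:**
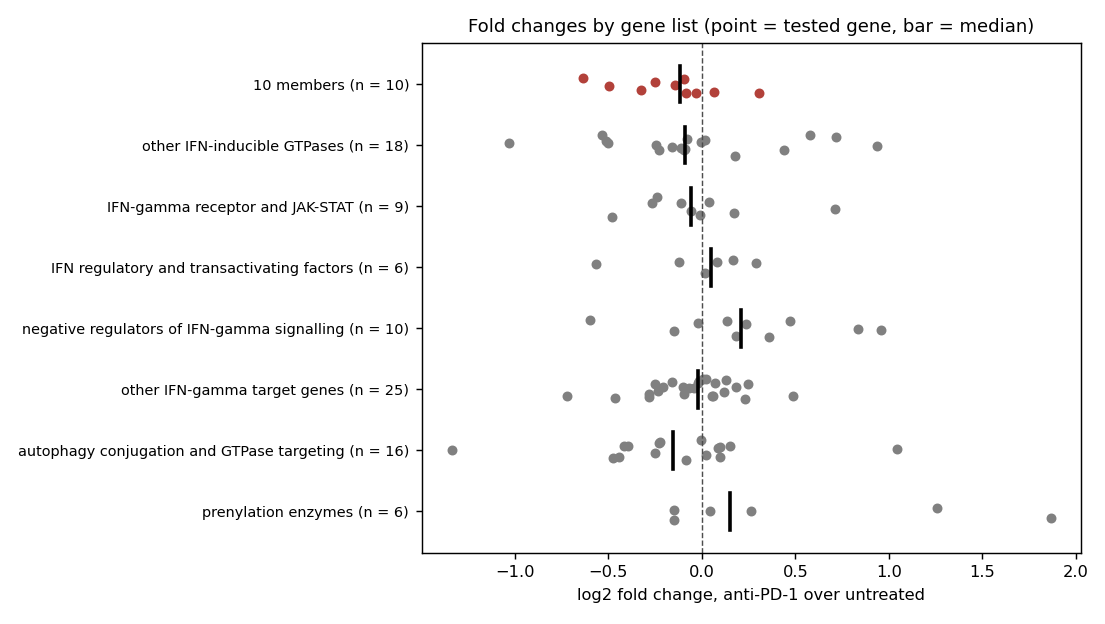
Log2 fold changes (edgeR, anti-PD-1 over untreated) of the tested genes in the 10 members (red) and 7 gene lists (grey), with the median as a black bar. The member median is -0.12, and the list medians lie between -0.16 and 0.21.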

How the data were processed

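The deposited values are raw fragment counts, produced by the authors using featureCounts 1.5.2 and UCSC mm10 genes, with pairs counted by strand (setting 1), per the file headers. Other tools in the submitters' processing notes are bcl2fastq, FastQC and DESeq2. Sources used here do not give the aligner's settings or any handling of duplicates. All samples were total RNA of sorted Tregs, made into libraries with the NuGEN Ovation SoLo kit, per the labels' protocols. 1 unnamed column was not used.

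From the counts, edgeR 4.0.16 (R 4.3.3) fitted treatment alone over 6 libraries after filterByExpr (a count of 10, 15 in total) and TMM scaling. Its quasi-likelihood test (glmQLFit with robust shrinkage) was two-sided, with Benjamini-Hochberg adjustment at 0.05 over 10352 genes holding 99.79% of the counts. Alternatives used DESeq2 1.42.0, limma-voom (limma 3.58.1), other scalings and filters, an earlier edgeR dispersion method added after seeing the data, and each library left out. No pair of libraries agreed within sampling noise (chi-square 9.71 to 30.8 per degree of freedom). The pairs with untreated library 1 stood at 23.7 to 30.8, and all other pairs at 9.71 to 14.9.

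The members, the 7 pathway lists and the 9 marker lists (161 entries, 2 matched through a synonym, 1 unmatched) were chosen with earlier results of these data known. The text names all members, every tested gene of the other GTPases, Foxp3 and Cd4, 9 signalling genes whatever their result (1 of them is not reported here), up to 4 genes of smallest p in each other list, and the 5 genes of closest profile. Rn45s, as well as Cd8a, Cd8b1, Ctla4, Ikzf2, Il2ra and other marker genes, were named after their values were seen. Protein sequences were not used here.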

Additional observations from a re-analysis of the deposited data

How the results depend on the processing

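No member passed the threshold under any of 15 alternatives. Gbp5 kept its direction in all 15 (log2 fold change -0.79 without anti-PD-1 library 6 to -0.50 without untreated library 1, adjusted p 0.104 to 0.860). So did Gbp6 (-0.86 without anti-PD-1 library 5 to -0.31 without 6), Gbp3, Gbp7 and Ifi47. Members lower at an unadjusted p under 0.05 numbered 2 in the main comparison. They numbered 3 with quality weights, with no filter or when untreated library 3 was left out. They numbered 4 when anti-PD-1 library 5 was left out, and 1 when any of the other 4 libraries was. Over all genes, 859 of 10352 reached that p in either direction in the main comparison, 791 of 10352 with quality weights and 1122 of 14756 with no filter. With a library left out, that number ran from 558 of 10682 (anti-PD-1 library 5) to 1107 of 10650 (untreated library 3). These numbers take both directions, whereas the members were counted as lower only. Genes called over the whole table numbered 31 with DESeq2, 5 with limma-voom, 13 with quality weights, 5 with upper quartile scaling, 7 with total counts and 52 without a filter, and 1 to 19 when a library was left out (1 without anti-PD-1 library 5, 19 without untreated library 1), against 3. Leaving out a library gave 5 to 9 members below 0 and a member median between -0.318 and 0.000139. The share of all genes below 0 then ran from 49.0% to 50.2%. Members near 0 changed sign. With a library left out, log2 fold changes ran from -0.228 to 0.0946 for Gbp2, from -0.263 (without anti-PD-1 library 5) to 0.0359 (without 6) for Gbp4, from -0.246 (without untreated library 1) to 0.135 (without 2) for Igtp, from -0.372 (without anti-PD-1 library 5) to 0.0521 (without 6) for Irgm1, and from -0.109 (without anti-PD-1 library 5; -0.0831 without untreated library 1) to 0.206 (without untreated library 3) for Irgm2. Gbp2 also changed sign with upper quartile scaling (0.0075) and total counts (0.0010), and Irgm2 with quality weights (-0.0484). The cause was not tested. No paired analysis was possible because the groups share no replicate number. Counting error alone was at most 6.44% for a member in any library.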
